A study of Mus musculus with 8 samples.

Results

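Immediate early genes are the genes a cell transcribes within minutes of a stimulus, from factors already present and without new protein synthesis. Their levels in mouse dorsal skin are described here for 10 genes, which are Fos, Fosb, Jun, Junb, Egr1, Atf3, Ier2, Dusp1, Zfp36 and Nr4a1. They were taken by name among the probe sets annotated with exactly 1 gene symbol, which gave 11 of 45037 probe sets and 10 of 18193 genes. Jun had a pair of probe sets and each of the other members had 1. Where a gene had several, the one with the highest mean over all arrays stood for it.

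The study measured RNA in frozen, powdered skin from the back of hairless Hos:HR-1 mice, all female, aged 9 weeks when the diets began and 10 weeks when the skin was taken. The collagen group ate AIN-93G, a purified rodent diet, with 2.0 g of a peptide digest of fish scale collagen (collagen hydrolysate) added to each 100 g, for 1 week, and the control group ate AIN-93G alone. Of 16 mice, 8 went to each diet and 4 shared a cage, and the series holds 8 arrays, 4 per diet, labelled as biological replicates. The sources used here do not name the mice or cages behind the arrays, nor the time from death to freezing.

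Most of these genes are switched on by MAP kinase and calcium or cAMP signals, which act through serum response factor at CArG boxes and through CREB at cAMP response elements (CRE). Their mRNAs are short-lived, so a level reflects recent signalling, and in skin they are known to respond to wounding, ultraviolet light, mechanical handling and tissue dissociation. Fos, FosB, Jun, JunB and ATF3 are leucine zipper proteins of the AP-1 group, Egr1 and Nr4a1 are a zinc finger factor and an orphan nuclear receptor, and Dusp1 and Zfp36 encode proteins that restrain the same signals.

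The 250 bases before the annotated start are printed for members of the pairs that passed adjustment below. Egr1 was also in those pairs but had no such window. The sequences let the elements by which such genes are known to be induced be seen. The windows are from RefSeq on GRCm38.p6, on the strand of the gene, and 8 of the 10 members had one. They lie at chr12:85473640-85473889 (plus strand) for Fos, chr7:19310046-19310295 (minus) for Fosb, chr17:26508473-26508722 (minus) for Dusp1, chr7:28379229-28379478 (minus) for Zfp36 and chr15:101266596-101266845 (plus) for Nr4a1, where the start used lies 12944 bases inside the annotated gene. The start used for Fosb lies -73 bases along the chromosome from its annotated start, which on the minus strand is inside the gene. Capitals mark the CRE core TGACG or its complement CGTCA, the full CRE in Dusp1, and in Zfp36 the CArG box.
Fos: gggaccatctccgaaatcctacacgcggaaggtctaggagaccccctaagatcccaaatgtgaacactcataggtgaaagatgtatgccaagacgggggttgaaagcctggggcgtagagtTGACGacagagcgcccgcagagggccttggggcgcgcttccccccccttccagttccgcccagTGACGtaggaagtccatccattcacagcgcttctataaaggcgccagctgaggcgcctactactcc
Fosb: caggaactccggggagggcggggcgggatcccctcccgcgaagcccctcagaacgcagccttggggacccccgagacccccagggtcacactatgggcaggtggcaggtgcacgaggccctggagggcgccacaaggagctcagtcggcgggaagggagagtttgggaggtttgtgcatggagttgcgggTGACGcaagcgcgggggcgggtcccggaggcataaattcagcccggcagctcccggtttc
Dusp1: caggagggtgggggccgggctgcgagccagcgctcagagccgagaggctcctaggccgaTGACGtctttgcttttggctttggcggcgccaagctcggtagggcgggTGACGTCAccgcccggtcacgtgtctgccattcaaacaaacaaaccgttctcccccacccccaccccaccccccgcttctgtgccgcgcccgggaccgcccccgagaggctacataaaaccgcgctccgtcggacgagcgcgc
Zfp36: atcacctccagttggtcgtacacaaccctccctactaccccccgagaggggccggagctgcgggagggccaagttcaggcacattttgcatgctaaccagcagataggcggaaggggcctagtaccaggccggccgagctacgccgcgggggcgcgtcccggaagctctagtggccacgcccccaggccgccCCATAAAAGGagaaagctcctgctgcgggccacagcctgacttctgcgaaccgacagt
Nr4a1: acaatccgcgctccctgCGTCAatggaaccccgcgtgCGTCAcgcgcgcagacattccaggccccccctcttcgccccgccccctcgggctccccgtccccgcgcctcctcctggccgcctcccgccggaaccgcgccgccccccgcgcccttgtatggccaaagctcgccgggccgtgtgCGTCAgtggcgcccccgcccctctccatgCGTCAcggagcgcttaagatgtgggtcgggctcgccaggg

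The CRE core TGACG, searched on both strands, was found in 6 of the 8 windows (Fos, Fosb, Junb, Atf3, Dusp1 and Nr4a1), against 17.8% of 32851 RefSeq windows of the same length. In Fos it began at -129 and -66, counted from the start, and in Nr4a1 it was found 4 times, each on the opposite strand. The full CRE TGACGTCA, which holds the core on both strands, was found in Dusp1, from -143 to -136, and in 1.55% of all windows. The EGR site GCGNGGGCG was found in 3 of 8 (Fosb, Zfp36 and Nr4a1) against 4.7% of windows, and the CArG box in 1 of 8, Zfp36, from -58 to -49, against 1.47%. The TATA box TATAAA was found in 1 of 8, Fos, from -33 to -28, against 12.4%, and the AP-1 site TGANTCA in 0 of 8, against 6.75%. These matches describe letters in a window and are not measured sites.

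The deposited values are on a log2 scale from 6.56 to 14.46 and differ very little between arrays. The range over the 8 arrays had a median of 7.36e-06 among probe sets, and 87.2% of probe sets ranged by less than 0.0001. The sources used here give no cause for this, so whether spreads can be compared between probe sets is not known. A difference on this scale is therefore given as it stands and beside the spread between arrays, and not as a fold change, and levels of different probe sets are not ranked against each other. Mean levels at or above 8.193, the median of the means of all probe sets, were found for 11 of 11 keratinocyte and 10 of 10 fibroblast markers. The same held for 15 of 15 skeletal muscle markers and 0 of 5 red cell markers. Of all 18193 genes 11597 also lay there, so these counts are only a weak check of the skin label. No detection calls were used, so a level on this scale does not show presence. In whole skin, fewer cells of a type and less RNA per cell cannot be told apart. Precision is limited by the number of arrays, and the p-values for diets set a difference against the spread between these arrays.

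Among the Fos proteins, Fos, which pairs with Jun proteins in AP-1, had levels of 11.4876, 11.4838, 11.4854 and 11.4839 on collagen arrays 1 to 4, against 11.4843, 11.4843, 11.4844 and 11.4926 on control arrays 1 to 4. Control array 4 stood above all others, collagen array 1 was the next, and the diets overlapped. Fosb, a close relative of Fos, had 7.6186, 7.6166, 7.6172 and 7.6164 on collagen arrays, against 7.6177, 7.6174, 7.6165 and 7.6216 on control arrays. Its highest pair of arrays was again control array 4 and collagen array 1. Its mean level of 7.62 lay below 8.193, which was true of no other member. Fos and Fosb ranged by 0.00884 and 0.00522, and their standard deviations (SD) exceeded those of 99% and 98.4% of genes.

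Jun, the central partner in AP-1, hardly moved on the deposited scale, with a range of 2.87e-05 around a level of 11.82. Its deviations from the mean of all arrays were -1.64e-06, -1.44e-06, -1.10e-05 and -2.42e-06 on collagen arrays, against -9.99e-06, -4.09e-06, 1.77e-05 and 1.30e-05 on control arrays. Control arrays 3 and 4 were thus high and the other 6 arrays lay below the mean. The second Jun probe set, with a mean level of 10.58, followed the first with r = 0.84 over 8 arrays. Junb, a Jun relative that can oppose it in AP-1, deviated by -6.90e-06, -4.59e-06, -3.67e-05 and 7.74e-06 on collagen arrays, against -2.64e-05, 5.50e-06, 8.95e-06 and 5.24e-05 on control arrays. Control array 4 was its highest and collagen array 3 its lowest, within a range of 8.90e-05. Atf3, a stress-induced factor of the ATF branch, had levels of 9.5730, 9.5730, 9.5726 and 9.5734 on collagen arrays, against 9.5735, 9.5730, 9.5732 and 9.5742 on control arrays. Control array 4 was again the highest, and collagen array 3 the lowest, in a range of 0.00157.

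Nr4a1 (Nur77) had the widest spread of the members, with levels of 9.385, 9.381, 9.371 and 9.375 on collagen arrays, against 9.375, 9.377, 9.382 and 9.402 on control arrays. Control array 4 stood highest, collagen array 1 next and collagen array 3 lowest. Its range of 0.0305 gave an SD larger than that of 99.6% of genes. Egr1, which binds GC-rich promoter sites, was the only member whose highest array was a collagen array. It had deviations of 1.60e-04, -7.27e-05, -6.17e-05 and -3.29e-05 on collagen arrays, against -4.43e-05, -1.50e-04, 5.86e-05 and 1.44e-04 on control arrays. Collagen array 1 and control array 4 formed the high pair, around a mean level of 12.45. Ier2, a small nuclear protein of the immediate early class, had the narrowest range, 4.84e-06 around a level of 10.70. Its deviations were 1.76e-06, -6.05e-07, -3.85e-07 and 5.85e-07 on collagen arrays, against -2.58e-06, -2.70e-06, 2.14e-06 and 1.81e-06 on control arrays, so control arrays 3 and 4 and collagen array 1 were high.

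Of the feedback genes, Dusp1, a phosphatase that removes phosphate from MAP kinases, had levels of 11.7405, 11.7388, 11.7384 and 11.7385 on collagen arrays, against 11.7388, 11.7380, 11.7397 and 11.7425 on control arrays. Control array 4 was the highest and collagen array 1 the next, while control array 2 was the lowest. Zfp36 (tristetraprolin), which binds AU-rich elements and speeds decay of the mRNAs that carry them, had 10.07556, 10.07523, 10.07499 and 10.07521 on collagen arrays, against 10.07520, 10.07511, 10.07553 and 10.07563 on control arrays. The same pair and control array 3 were high. The members' spreads differed by a factor of 4910 between Nr4a1 and Ier2, and 5 of the 10 (Fos, Fosb, Atf3, Dusp1 and Nr4a1) lay in the widest 5% of gene SDs. All 10 members had a larger SD among control than among collagen arrays. The share of all genes for which this held was not counted. Control array 4 was the highest control array for 8 members. For Fos, control arrays 1 to 3 lay at 11.4843 to 11.4844 and control array 4 at 11.4926.

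**Figure D1:**
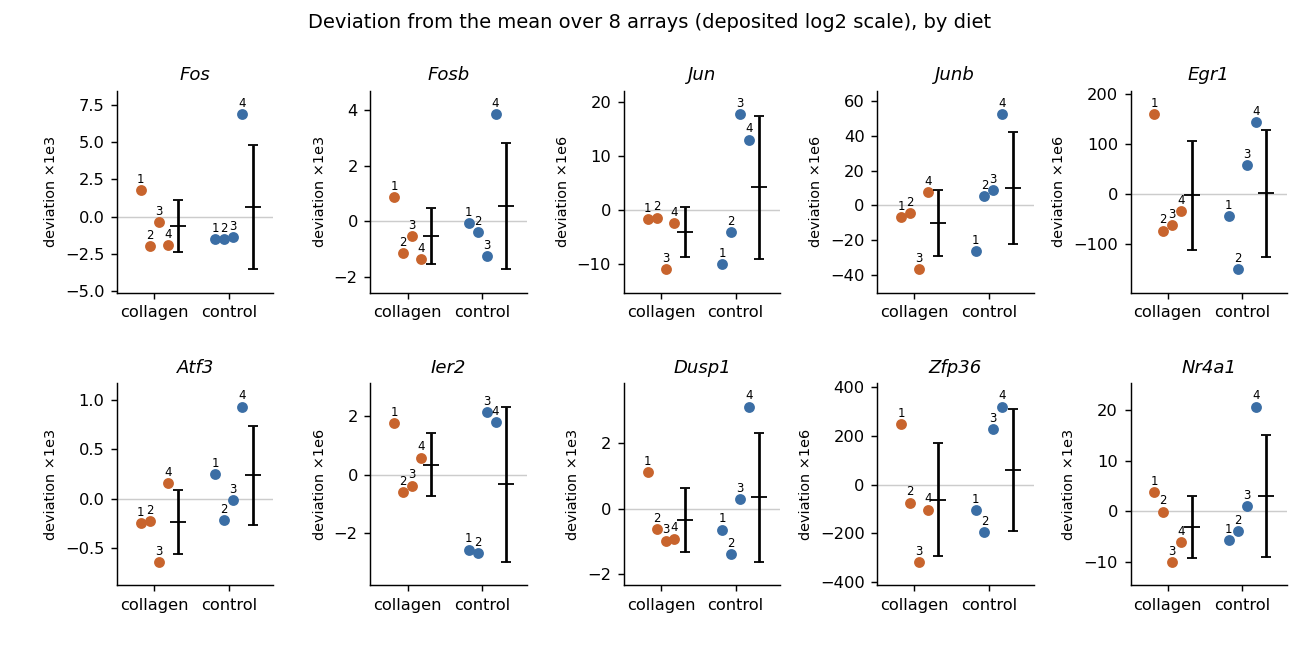
Deviation of the deposited log2 level of each of the 10 members from its mean over all arrays (vertical axis). Each panel has a scale of its own, with deviations multiplied by the factor in its axis label. The 4 collagen arrays are on the left and the 4 control arrays on the right, with the diet mean and SD. The diets overlap in all panels, and control array 4 is the highest point for 7 members.

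To compare members with such unequal spreads, each value was set as a z value, its deviation from the mean of 8 arrays divided by the SD over them. The mean z of the members was 0.47, -0.38, -0.81 and -0.27 on collagen arrays 1 to 4, against -0.52, -0.63, 0.38 and 1.76 on control arrays 1 to 4. On control array 4 all 10 members lay above their own mean, with z between 0.94 and 2.26. On collagen arrays 2 and 3 the number was 0, on collagen array 1 and control array 3 it was 7. Control array 4 was the highest of the 8 arrays for 7 members, against 12.5% of all genes, and among the highest pair for all 10. Collagen array 1 was the highest for 1 member, Egr1, against 17.6% of all genes, and control array 3 for the other two, Jun and Ier2, against 8.69%. The lowest array was collagen array 3 for 5 members. Within the diets, collagen array 1 was the highest collagen array for 7 members, against 27.6% of all genes, and control array 4 the highest control array for 8, against 27%. An array stood apart from the other 3 of its diet, by Dixon's gap criterion, for Jun (collagen array 3, low) and Dusp1 (collagen array 1, high), against 5.34% of genes in the collagen diet, and for Fos (control array 4, high), against 5.39% in the control diet and 0.676% with that array as the high one.

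**Figure D2:**
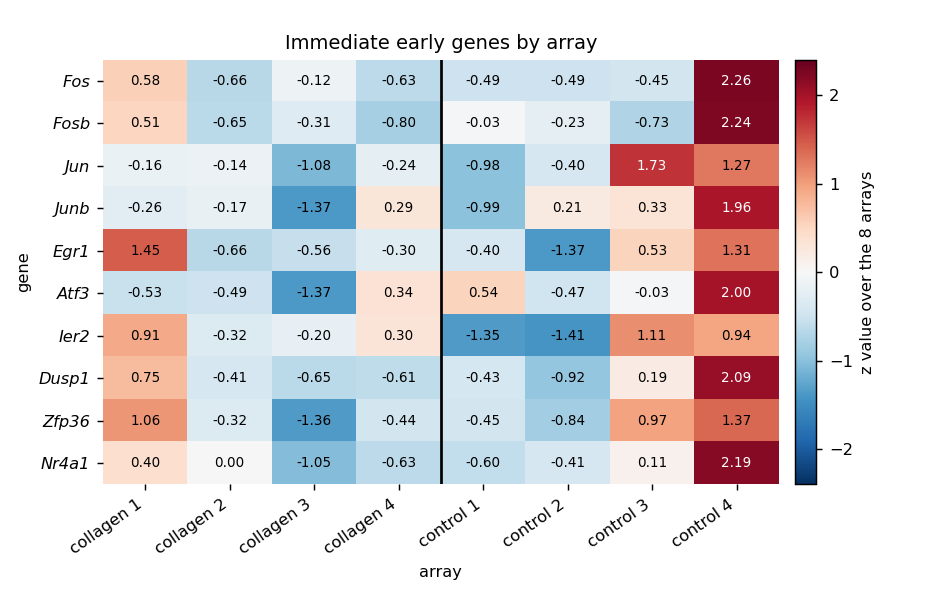
z value of each of the 10 members (rows) on the 4 collagen arrays (left of the line) and the 4 control arrays (right). All 10 values on control array 4 are above 0, from 0.94 to 2.26, and those on collagen array 1 are above 0 for 7 members.

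How often control array 4 led depended on the scaling. With each array centred on its median it was highest for 5 members and collagen array 1 for the other 5, but under that scaling collagen array 1 was the highest for 93.8% of all genes and control array 4 for 1.27%. With quantile normalization 8 members kept a spread (Jun and Egr1 took the same value on all arrays), and control array 4 was the highest for 4 of them and collagen array 1 for 2, against 6.43% and 59.6% of all genes. The mean z was 1.31 on collagen array 1 and 1.40 on control array 4 under centring, so that the lead of control array 4 was nearly lost. Under quantile normalization it was 0.45 on collagen array 1 and 1.17 on control array 4.

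The members varied together over the arrays. All 45 pairs had a positive Pearson r, with a median of 0.70, from 0.26 for Atf3 and Ier2 to 0.97 for Fos and Fosb. An r of at least 0.7 was reached by 22 pairs, or 48.9%, against 4.47% of all pairs of genes, whose median r was 0.01. By exact permutation over 40320 orders of the arrays, 22 pairs had an unadjusted p under 0.05 for r and 12 for Spearman's rho (median rho 0.52). After Benjamini-Hochberg adjustment over the 45 pairs, 6 passed for r and 0 for rho.

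Of the 6 pairs, 4 joined a feedback gene with Egr1 or Nr4a1, 1 joined both feedback genes and 1 joined Fos and Fosb. Dusp1 and Zfp36 had r = 0.87 (exact permutation p = 9.42e-04, adjusted 0.0208) and rho = 0.95 (p = 0.00114, adjusted 0.0513), and r was 0.89 without the 2 arrays farthest from the median of Dusp1. Egr1 followed Dusp1 with r = 0.89 (exact permutation p = 0.00139, adjusted 0.0208) and rho = 0.81 (p = 0.0218), and r was 0.92 without those arrays. Egr1 followed Zfp36 with r = 0.90 (exact permutation p = 0.00446, adjusted 0.0335) and rho = 0.79 (p = 0.0279), and r was 0.77 without the farthest arrays. These relations were seen among the remaining 6 arrays also, and so was that of Zfp36 and Nr4a1, with r = 0.84 (exact permutation p = 7.44e-04, adjusted 0.0208), rho = 0.90 (p = 0.00456) and r = 0.82 on 6 arrays. Dusp1 and Nr4a1 had r = 0.95 (exact permutation p = 0.00186, adjusted 0.0209), rho = 0.86 (p = 0.0107) and r = 0.63 on 6 arrays. Fos and Fosb had r = 0.97 (exact permutation p = 0.00441, adjusted 0.0335) but rho = 0.67 (p = 0.0831) and r = 0.42 on 6 arrays. In all 6 pairs the arrays farthest from the median of the first gene were collagen array 1 and control array 4, so the relation of Fos and Fosb rests in good part on those.

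The covariation over the whole group leaned on control array 4. Without it the median r was 0.43 (-0.43 to 0.97), 37 pairs were positive and 13 reached 0.7, against 6.23% of all pairs of genes. Without the 2 arrays farthest from the median of the first gene of each pair, in the order listed, the median was 0.01. Of the 45 pairs, 24 were then positive. This value depends on which gene sets the arrays left out. For Fos and Nr4a1 r was -0.61 when Fos set them and 0.69 when Nr4a1 did. For Jun and Nr4a1 it was 0.76 when Jun set them and 0.51 when Nr4a1 did. Each member set against the mean z of the other 9 showed which kept their place. Without control array 4, r was 0.98 for Zfp36, 0.89 for Dusp1, 0.84 for Egr1, 0.82 for Nr4a1, 0.72 for Ier2 and 0.62 for Jun. It was 0.41 for Fos, 0.39 for Junb, and 0.11 for both Fosb and Atf3, all of which had been 0.70 or more over 8 arrays. These are descriptions over arrays that share one table and one normalization. With deviations from the mean of each diet in place of values, the median r was 0.69.

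**Figure D3:**
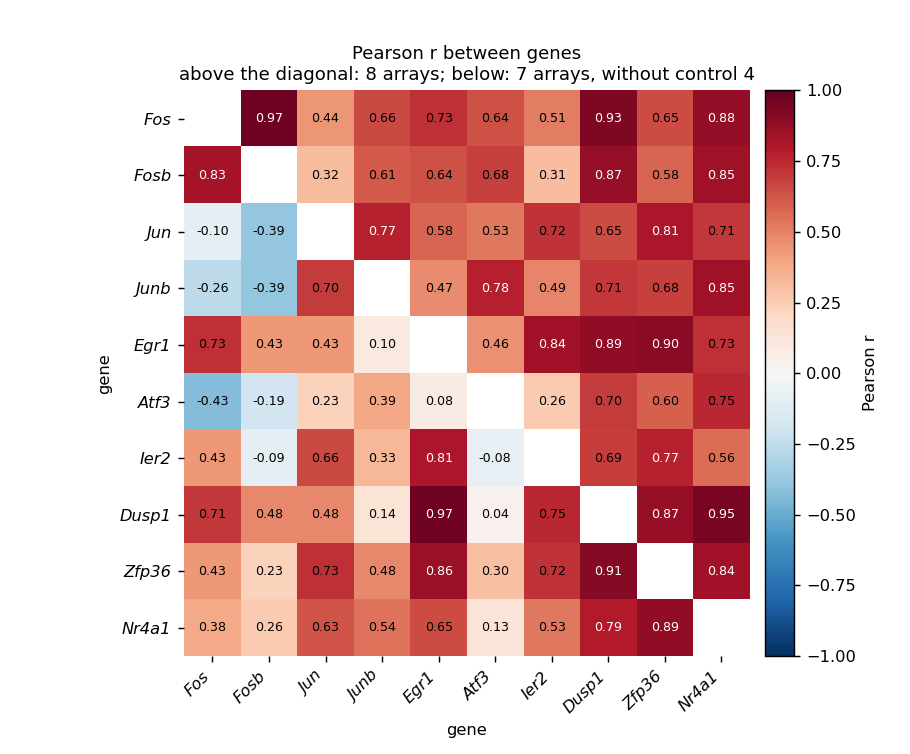
Pearson r for the 45 pairs of the 10 members (rows and columns), in colour and as numbers, over 8 arrays above the diagonal and over 7 arrays, without control array 4, below it. All values above the diagonal are positive, from 0.26 to 0.97, while those below it run from -0.43 to 0.97.

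Other genes of the same pathway followed the members in part. An r of at least 0.7 with the members' mean z was found for 2.67% of 18191 genes. Of 15 other immediate early transcription factors, 5 reached it, led by Csrnp1 (r = 0.89), a cysteine- and serine-rich nuclear factor, and Klf2 (r = 0.80), a flow-induced Krüppel factor of endothelium. Without control array 4, r was 0.72 for Csrnp1 and 0.49 for Klf2, and 4 of the 5 stayed at 0.7 or more. Klf10, a TGF-beta-induced Krüppel factor, and Ier5, named after their values were seen, ran the other way in that list (r = -0.84 and -0.68, and -0.54 and -0.38 without control array 4). Of 27 other immediate early signalling and secreted genes, 7 reached it, led by Ccn1 (r = 0.92), a matricellular protein, and Dusp5 (r = 0.86), a nuclear phosphatase of ERK. Without control array 4, r was 0.96 for Ccn1 and 0.65 for Dusp5, and 3 of the 7 stayed at 0.7 or more. The number was 1 of 10 for other AP-1 genes (Mafk, r = 0.75, and 0.28 without control array 4), 0 of 14 for the MAP kinases and activators that feed these promoters, and 0 of 6 for the regulators of AU-rich mRNA. As a group the other transcription factors had another order of arrays. Their mean z was 1.06, -0.15, -0.24 and -0.40 on collagen arrays, against -0.02, -0.71, 0.12 and 0.34 on control arrays, so collagen array 1 was high and control array 4 less so. The signalling genes had 0.44, -0.09, -0.40 and -0.14 on collagen arrays, against -0.44, -0.47, 0.06 and 1.03 on control arrays, with control array 4 highest as for the members.

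Among 11586 genes at or above the median level, the 5 whose z values followed the members' mean most closely over 8 arrays were Nop10 (r = 0.98), Kif17, Gm9895, Tpsb2 and Slc34a3 (r = 0.93). Nop10 encodes a small protein of H/ACA ribonucleoproteins, Kif17 a kinesin motor and Tpsb2 a mast cell tryptase. The 5 that ran most against it were Lpar3 (r = -0.97), a lysophosphatidic acid receptor, Efna1 (r = -0.95), an ephrin ligand, 1600020E01Rik, Zfp52 and Pex2 (r = -0.94). Without control array 4 these r ranged from 0.83 to 0.93 for the first 5 and from -0.99 to -0.77 for the second. Of these 10 genes, 6 had an SD below the median gene SD of 3.13e-06 (Kif17, Gm9895, Slc34a3, 1600020E01Rik, Zfp52 and Pex2), the smallest being 1.73e-07 for Pex2.

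Some other gene groups were high or low on the same arrays as the members, and others ran against them. Mast cell markers had a mean z of 1.71, -0.73, -0.45 and -0.23 on collagen arrays, against -0.97, -0.63, 0.13 and 1.17 on control arrays, and 5 of 6 had r of at least 0.7 with the members, led by Tpsb2 (0.94) and the chymase Mcpt4 (0.79). Their summed log2 level ran from 60.9621 to 60.9862 on collagen arrays and from 60.9612 to 60.9800 on control arrays. The scale has no 0, its lowest value being 6.56, so whether a marker was absent cannot be read from it. Glucocorticoid response genes had 1.07, -0.07, -0.69 and -0.22 on collagen arrays, against -0.65, 0.09, -0.17 and 0.63 on control arrays. Of these, 4 of 10 reached 0.7, and did so without control array 4 also, led by the clock gene Per1 (0.87) and the Krüppel factor Klf9 (0.84). The median r of the 10 was 0.57, and 0.36 without control array 4. In the same list Zbtb16, named after its values were seen, ran the other way (r = -0.69, and -0.60 without control array 4). Fkbp5, and Angptl4, which was named after its values were seen, did not follow the members (r = 0.04 and 0.01). Hair follicle markers ran against the members, with a mean z of -1.42, -0.22, 0.93 and -0.11 on collagen arrays, against 0.67, 1.02, -1.04 and 0.17 on control arrays. The median r of these 9 genes with the members was -0.42, and -0.93 (-0.98 to -0.64) without control array 4, with -0.94 for Padi3, an enzyme of the hair's inner root sheath. Skeletal muscle markers matched the members on one array and not on the other, with a mean z of -1.46 on collagen array 1, the lowest, and 1.16 on control array 4, the highest, and 0 of 15 reached 0.7 with the members. Their summed log2 level ran from 185.7243 to 186.2819 on collagen arrays and from 185.4311 to 186.4741 on control arrays, with control array 2 the lowest. Myh4, named after its values were seen, carried most of this sum's spread, with an SD of 0.364. Without it the sum of the other 14 ran from 175.9681 to 176.0608 on collagen arrays and from 176.0318 to 176.0815 on control arrays, with collagen array 1 the lowest and control array 4 the highest. Heat shock genes had a mean z of 0.81 on collagen array 1 and 0.28 on control array 4, and 1 of 13 reached 0.7 (Hspe1, 0.78, and 0.52 without control array 4). Hypoxia genes reached it in 0 of 11 and clock genes in 0 of 12, a list that did not hold Per1, which was placed among the glucocorticoid response genes.

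A measure of RNA integrity also differed between those arrays, though by very little on the deposited scale. The 3' minus 5' difference of the Gapdh control probe sets grows as RNA is degraded. It was 0.2906 on collagen array 1, the highest (z 1.74), and 0.2898 on control array 4, the lowest (z -1.08). Control arrays 2 and 3 also had 0.2898 (z -0.83 and -0.85), so control array 4 did not stand apart. For beta-actin it was 0.3801 on collagen array 1 (z 1.48) and 0.3800 on control array 4 (z -0.61). Collagen array 2 was nearly as high (z 1.37), and the lowest was collagen array 4 (z -1.36). The part of mast cells, muscle, hair follicles, glucocorticoid response and RNA integrity in the members' levels was not tested.

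**Figure D4:**
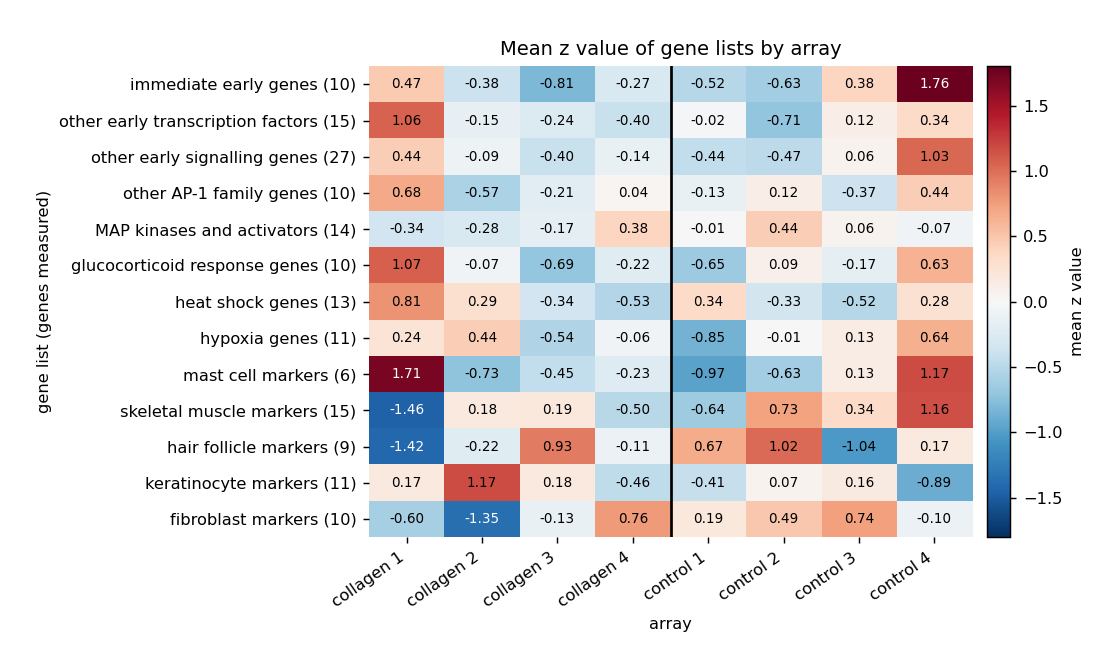
Mean z value of 13 gene lists (rows, genes measured in brackets) on the 4 collagen arrays (left of the line) and the 4 control arrays (right). The immediate early genes reach 1.76 on control array 4 and mast cell markers 1.71 on collagen array 1, while keratinocyte markers are at -0.89 on control array 4.

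The comparison of diets asks whether eating collagen hydrolysate for 1 week changed gene levels in the skin. None of the 10 members passed in the limma fit over all genes, in which 0% of 18193 genes passed at a Benjamini-Hochberg adjusted p of 0.05 (635 genes, 3.49%, had an unadjusted p under 0.05). The same held for the 11 probe sets in the fit over 45037, in which 0% passed and 1601 (3.55%) had an unadjusted p under 0.05. The levels of the diets overlapped for all 10 members, where 2.02% of all genes had diets that did not overlap. Of the members, 9 had a lower mean in collagen skin than in control skin, against 47.1% of all genes, and 1, Ier2, a higher one. The median difference was -0.56 within-diet SD, against 0.05 over all genes. The mean z was -0.25 ± 0.53 on collagen arrays and 0.25 ± 1.11 on control arrays (SD, n = 4 each).

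Nr4a1 averaged 9.377876 ± 0.00608 on collagen arrays and 9.383924 ± 0.0121 on control arrays (SD, n = 4 each), a difference of -0.00605 ± 0.00649 (SE, limma unadjusted p = 0.385, adjusted p = 0.999, exact permutation p = 0.457). In units of the within-diet SD this was -0.63, with a 95% interval of -2.27 to 1.00. Atf3 had the smallest p of the members, with a difference of -4.76e-04 ± 2.88e-04 (SE, limma unadjusted p = 0.146, adjusted p = 0.999, exact permutation p = 0.143), or -1.12 SD (-2.76 to 0.51). Fos differed by -0.00125 ± 0.00217 (SE), or -0.39 SD (-2.03 to 1.24), and Fosb by -0.00107 ± 0.00119 (SE), or -0.61 SD (-2.25 to 1.02). Dusp1 differed by -6.93e-04 ± 0.00106 (SE), Zfp36 by -1.23e-04 ± 1.65e-04 and Egr1 by -3.85e-06 ± 8.06e-05. Jun, Junb and Ier2 differed by -8.28e-06, -2.02e-05 and 6.75e-07, which are -0.83, -0.76 and 0.33 within-diet SD. The adjusted p was 0.999 for each member by limma, and exact permutation p-values ran from 0.143 to 0.943, where 70 assignments of the arrays allow no p below 0.0286. The intervals reach beyond 1 SD in the negative direction for all 10 and also in the positive direction for Fos, Fosb, Egr1, Ier2, Dusp1 and Zfp36.

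The shared direction rested on control array 4. Without it 5 members lay lower and 5 higher in collagen skin, with Fos at 8.20e-04 ± 9.94e-04, Fosb at 2.98e-05 ± 6.36e-04, Dusp1 at 2.30e-04 ± 6.79e-04 and Egr1 at 4.35e-05 ± 7.82e-05 (SE), and Nr4a1 at -1.87e-04 ± 0.00378. The limma adjusted p was 1 for each. In mean z the diets differed by -0.49 with all arrays, by 0.01 without this array and by -0.16 with each array centred on its median.

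**Figure D5:**
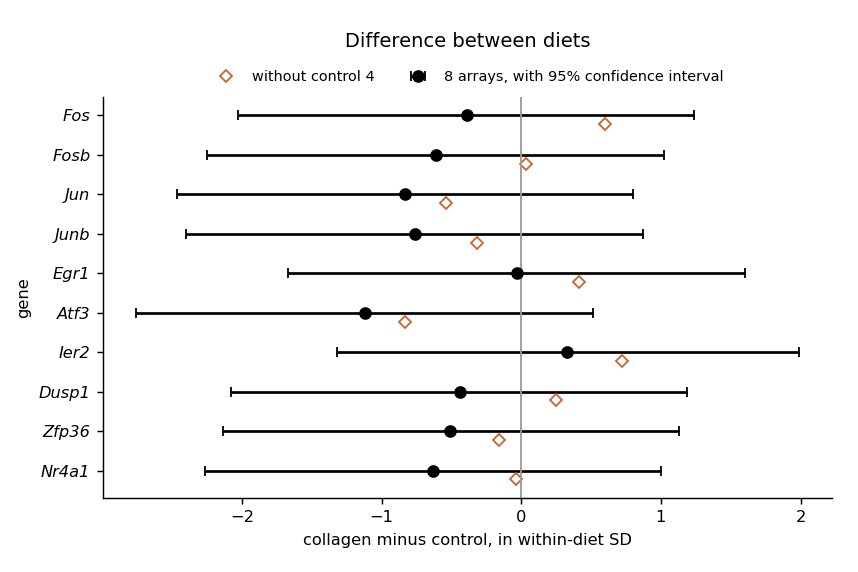
Collagen minus control difference of each of the 10 members in units of its within-diet SD (horizontal axis) with the 95% interval from limma, and the value without control array 4. All intervals include 0, and the points without control array 4 fall on both sides of it.

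Over all gene lists used, members included, 0 of 240 measured genes passed in this comparison by limma, and 12 had an unadjusted p under 0.05. Of the other AP-1 genes 5 of 10 lay higher with collagen and 5 lower. Of the other immediate early transcription factors 11 of 15 lay higher and 4 lower, of the signalling genes 12 of 27 higher and 15 lower, and of the MAP kinases and activators 6 of 14 higher and 8 lower. Creb1, the CRE-binding activator, had the smallest p of these, with 2.62e-05 ± 1.07e-05 (SE, limma unadjusted p = 0.0463, adjusted p = 0.999). Csrnp1, the transcription factor most like the members, differed by -8.89e-06 ± 2.37e-05, and Ccn1 by -7.84e-04 ± 0.00272 (SE). Egr3, an Egr1 relative, differed by 3.52e-05 ± 3.58e-05 and Sik1, a CRE-induced kinase, by -3.52e-04 ± 1.91e-04 (SE).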

How the data were processed

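Biotin-labelled RNA from dorsal skin was hybridised to 1-colour 3' expression arrays, per the labels' protocols. The authors deposited log2 values with a column per array, and R 2.7.2 is named per the submitters' processing notes. The sources used here do not give the summary method, normalization or genome build. That the scale is log2 was inferred from its range. Values were used as deposited, without the 64 control probe sets. Of the other 45037, 34945 had 1 symbol in the platform annotation, 932 had several and 9160 had none. RefSeq (GRCm38.p6) held the Entrez identifiers of 34741 of those with 1 symbol, which changed 0 names.

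Diets were compared by limma (version 3.58.1, R 4.3.3) through lmFit and eBayes as collagen minus control, two-sided and without covariates, adjusted over all genes or probe sets by Benjamini-Hochberg at 0.05. Exact permutation tests were two-sided. Fits were tested on simulated data. The package data.table (version 1.17.8) read the values, and matplotlib 3.10.9 drew the figures. Members and gene lists were chosen with earlier results of these data known. Named genes were all 10 members, up to 2 genes per list by smallest p and up to 2 by highest r with the members' mean z, and the 5 most and 5 least like genes at or above level 8.193. Alternatives were each left-out array, 2 other normalizations, a filter on dim probe sets, other variance models, array weights, the replicate block, and the mean of a gene's probe sets. Those for the members' mean z were chosen after seeing the data.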

Additional observations from a re-analysis of the deposited data

Results flagged for a closer look

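Within the 4 arrays of a diet, 1 array stood far from the others for 3 members, by the gap to its neighbour divided by the range of the group, set against Dixon's 95% critical value for 4 arrays. Jun was low on collagen array 3, with a gap ratio of 0.8979. Dusp1 was high on collagen array 1, with 0.8291, which lies at the critical value. Fos was high on control array 4, with 0.9854. These are 3 of 20 groups examined, where chance gives about 1 in 20. Over all genes 5.34% of collagen groups and 5.39% of control groups passed, and 0.676% of genes passed through a high control array 4.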

How the results depend on the processing

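No member passed under any of the 17 alternatives, where adjusted p-values ran from 0.625 to 1. Of 169 values of members, 153 kept their direction, 14 turned and 2 were at 0, none of them past the threshold. Many of the 153 could not turn. Exact permutation, the other variance models, the filter on dim probe sets and the replicate block left each difference as it was. So did the mean of a gene's probe sets for every member but Jun. With each array centred on its median, Jun was at 4.69e-05, Junb at 3.50e-05 and Egr1 at 5.13e-05, and with array weights Ier2 was at -8.62e-08. With 1 array left out, Fos ran from -0.00205 to 8.20e-04, Fosb from -0.00167 to 2.98e-05, Dusp1 from -0.00127 to 2.30e-04, Egr1 from -5.77e-05 to 4.35e-05 and Ier2 from -1.14e-07 to 1.50e-06. Left out singly, control array 4 turned Fos, Fosb, Dusp1 and Egr1, collagen arrays 2, 3 and 4 and control array 3 each turned Egr1, and control arrays 1 and 2 each turned Ier2. Quantile normalization called 2 probe sets, neither of a member, against 0 otherwise, and left Jun and Egr1 with a difference of 0. The median r of the members was 0.41 under quantile normalization, over 28 pairs, and 0.43 to 0.77 with 1 array left out. The cause was not tested. The mean z difference, -0.49, ran from -0.76 to 0.01 with 1 array left out and was -0.16 with median centring and -0.48 with quantile normalization. Fosb has no value with dim probe sets left out.

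Same-numbered arrays of the 2 diets correlated at 0.0111 to 0.362, above 0.1 in 2 of 4. Arrays with different numbers correlated at -0.283 to 0.175. Whether the numbers pair the arrays cannot be told from 4 such values, and the main fits were unpaired. With the replicate block 0 genes passed in limma (1110 at unadjusted p under 0.05) and 0 probe sets (2801), and the median r was 0.80. Signal over background is unknown.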
